A study of Homo sapiens with 12 samples.

Results

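The 38 genes described here encode human nuclear receptors. They were taken by gene symbol from the nuclear receptor family without NR0B1, the NR4A and NR1D genes, NR1H2 and NR1H3, and they are 38 of the 19647 genes in the table. The data are RNA-seq libraries of A549, an established epithelial line from a human non-small cell lung cancer, in 4 groups of 3: cells overexpressing NR0B1, their overexpression control, cells with an NR0B1 knockdown (shNR0B1), and their knockdown control (shNC). The labels call both controls wild type and give no treatment, and they name no vector, promoter or clone. The replicates are not said to be separate cultures, so p-values measure only the spread between these libraries, which may be technical. Libraries held between 15049011 and 22797076 expected counts. Expected counts per gene, scaled to library size (CPM), were tested with edgeR, and FPKM, which is scaled to transcript length, is used to compare levels between genes.

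Nuclear receptors are transcription factors with a zinc-finger domain that binds DNA and a domain that binds a small lipophilic ligand. With an agonist bound they recruit coactivators such as the NCOA proteins and the Mediator subunit MED1. Retinoic acid, thyroid hormone, vitamin D and fatty acid receptors work as heterodimers with a retinoid X receptor, glucocorticoid and mineralocorticoid receptors as homodimers that are released from HSP90 chaperones, and orphan members have no established natural ligand. NR0B1 (DAX-1) is itself a family member that lacks the usual DNA-binding domain and is best known as a repressor of NR5A receptors in steroid-producing tissue.

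NR0B1 stood at 98.9, 81.8 and 84.2 CPM in overexpressing cells, against 17.9, 60.1 and 55.2 CPM in their control. It stood at 2.99, 3.31 and 5.84 CPM in knockdown cells, against 16.3, 21.1 and 13.3 CPM in the knockdown control. Groups did not overlap in either comparison, but overexpression control library 1 was near the knockdown control. That library and knockdown library 2 stood apart from their groups: correlations of log CPM were 0.940 and 0.935 between overexpression control library 1 and the others, against 0.976 between those, and 0.923 and 0.900 between knockdown library 2 and the others, against 0.959 between those. Whether either library is labelled correctly cannot be told from these data. Of the 5 epithelial markers, KRT8 (590 to 1411 FPKM), KRT18 (547 to 1513), CDH1 (23.7 to 71.8) and KRT19 (4.29 to 120) were present in every library, while EPCAM reached no more than 2.60. The leukocyte genes PTPRC and CD3E, the endothelial genes PECAM1, CDH5 and VWF and the fibroblast genes PDGFRA, PDGFRB, DCN and LUM stayed below 1 FPKM in all 12 libraries, and CD68, a lysosomal protein used as a macrophage marker, had 15.1 to 59.6.

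In these cells 26 of the 38 receptors were expressed, meaning that 3 libraries or more reached 1 FPKM, which is 68.4%, beside 60.6% of all genes. The glucocorticoid receptor NR3C1 was the most abundant, with 69.0 to 95.8 FPKM in single libraries and a mean of 82.4, above 94.4% of the genes tested. PPARG followed with a mean of 33.3 FPKM, then RARA with 20.1, NR2C2 with 18.6, NR5A2 with 15.9, ESRRA and RXRA with 13.1 each, THRA with 11.4, NR2F2 with 10.9 and NR2C1 with 10.8. These 10 genes had means of 10 FPKM or more. A middle group ran between means of 4.57 for PPARD and 8.82 for HNF4A and held RXRB, NR2F6, RARB, RARG, VDR and THRB besides. The lowest 8 were NR2F1, NR1H4, RORA, NR6A1, HNF4G, NR2E3, NR3C2 and PPARA, with means from 2.43 for NR2F1 to 0.786 for PPARA. Those 8 reached 1 FPKM in some libraries only, from 3 libraries for PPARA to 11 for NR1H4 and NR2F1, and the other 18 did so in all 12.

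**Figure D1:**
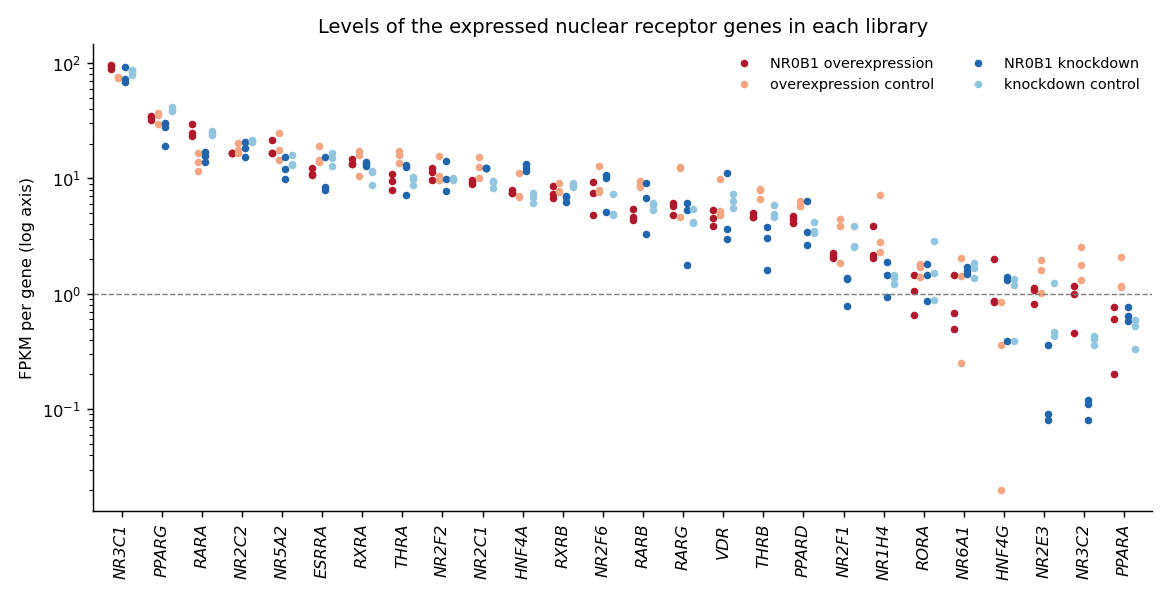
FPKM (log axis) of the 26 expressed receptor genes in each of the 12 libraries, ordered by mean, with the groups side by side and a dashed line at 1 FPKM. NR3C1 lies above the others in all libraries, at 69.0 to 95.8 FPKM, and the 8 genes at the right cross the line.

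By role, all 6 receptors for fatty acids, thyroid hormone and vitamin D were expressed, as were 5 of 6 retinoid receptors and 8 of 9 in the group of HNF4, testicular, photoreceptor and COUP-TF orphans. Only 3 of 8 steroid and estrogen-related receptors passed, along with 1 of 3 receptors for xenobiotics and bile acids, 2 of 4 in the NR5, NR6 and NR0B group and 1 of 2 ROR receptors. The 12 genes that missed the threshold reached 1 FPKM in 0 libraries. Their highest single values were 0.52 for ESRRB and 0.33 for ESRRG, both estrogen-related receptors, 0.17 for the estrogen receptor ESR2 and 0.17 for NR0B2 (SHP), a relative of NR0B1 that also lacks the DNA-binding domain. NR5A1, the steroidogenic receptor that NR0B1 represses in adrenal and gonad, reached 0.09, NR2E1 and the progesterone receptor PGR 0.08, RORB 0.07, the estrogen receptor ESR1 0.05 and the xenobiotic receptor NR1I2 (PXR) 0.04. RXRG and NR1I3 (CAR) had 0 counts in all 12 libraries, which allows up to 3 counts per library (counting error only). Scaled to the full library totals, 3 counts are 0.132 to 0.199 CPM. Those totals include transcripts assembled by the authors, so the limit is higher on the CPM scale of the fit. There 3 counts were 0.1845 CPM in knockdown library 3, against 0.1554 by its total.

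The sum over the 38 genes differed little between groups. It was 294 to 307 FPKM in overexpressing cells, against 305 to 323 FPKM in their control, and 235 to 312 FPKM in knockdown cells, against 286 to 299 FPKM in the knockdown control. What differed more was the part held by NR3C1, which made up 30.3 to 32.1% of the sum in overexpressing cells, against 23.4 to 24.5% in their control. In knockdown cells it made up 28.9 to 29.5%, against 27.3 to 29.2% in the knockdown control, ranges that overlap.

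With overexpression, 3 of the 26 expressed receptors were called, that is, had a Benjamini-Hochberg adjusted p under 0.05 over the 11908 genes tested, beside 18.1% of all genes tested. RARA rose (9.87% of all genes tested were called higher), and NR3C2 and RARB fell (8.2% were called lower). The knockdown gave 8 called receptors, beside 23.9% of all genes: HNF4A and NR2C1 rose (12.4% of all genes), and RARA, NR3C2, PPARG, THRB, NR2F1 and NR2E3 fell (11.5%). A direct test of whether the responses of both arms differ called 4 receptors, RARA, THRA, HNF4A and NR2C1, beside 25.6% of all genes. The controls differed from each other as well: 7 receptors were called between them, beside 33.4% of all genes. No test of these shares was made, and the 8 genes that cross 1 FPKM passed the filter partly through the group where they are high. Among the 18 receptors expressed in every library, 2 were called with overexpression, 5 in the knockdown, 4 for the difference of arms and 4 between the controls. The share called among all genes expressed in every library was not computed, so these counts have no matching background. Called in both arms were RARA and NR3C2, beside 5.79% of all genes. NR3C2 passed the filter only through the overexpression control, the group from which its fall with overexpression is measured.

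The median log2 fold change of the 26 receptors was -0.44 with overexpression and -0.07 in the knockdown, beside -0.03 and 0.03 over all genes tested, and 0.35 between the controls, beside 0.01. The overexpression control enters the -0.44 and the 0.35 with opposite signs, so these values are not independent. The 26 also include PPARA and NR3C2, which passed the filter only through that control. Over all 4 groups, 11 receptors differed somewhere, beside 50.3% of all genes. Leaving out 1 library moved these counts: from 1 (without overexpression library 1, 2 or 3 or overexpression control library 3) to 8 (without knockdown library 2; 5 without knockdown library 3) with overexpression, and from 5 (without knockdown library 1 or knockdown control library 1 or 3) to 10 in the knockdown. The difference of arms gave 7 without knockdown library 3, and the 4-group test 6 when any knockdown control library was left out and 7 without overexpression control library 2. FPKM of the groups did not overlap for 11 receptors with overexpression (41.6% of all genes), 11 in the knockdown (40.5%) and 13 between the controls (52.6%).

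**Figure D2:**
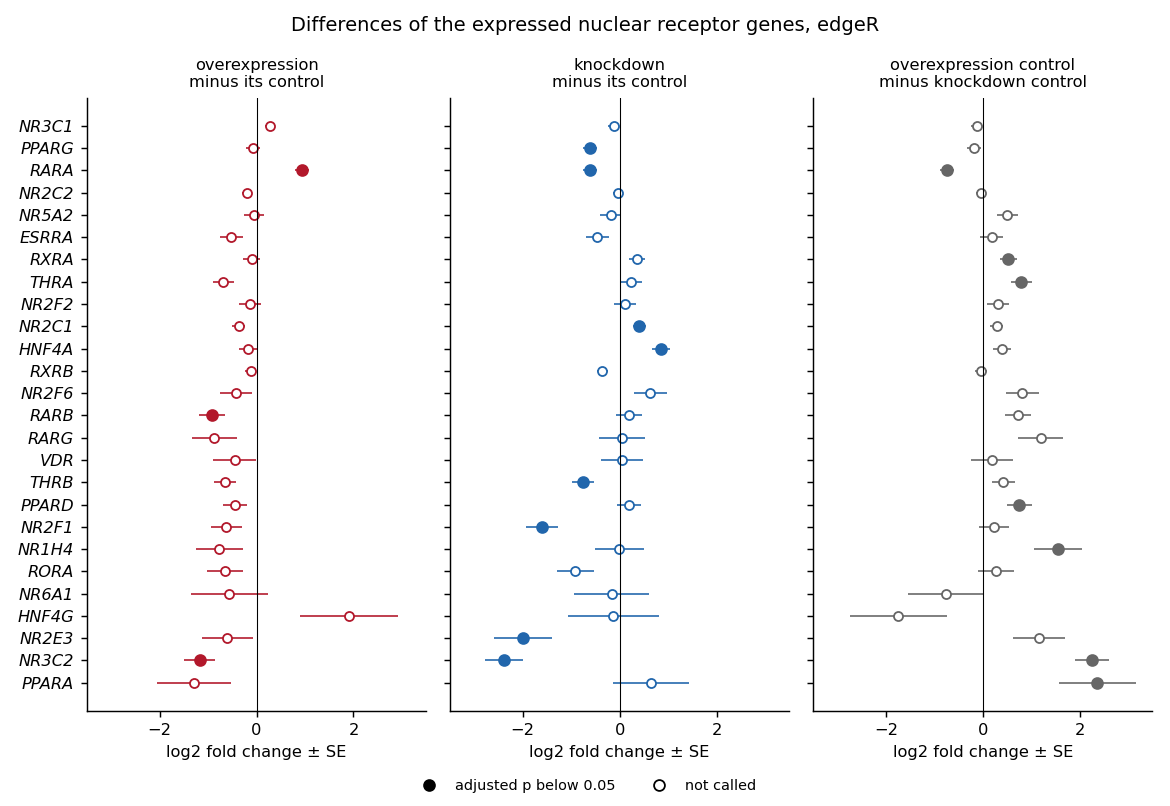
Log2 fold change ± SE of each expressed receptor (edgeR, 3 libraries a group), with filled points for an adjusted p below 0.05. RARA lies at 0.94 with overexpression, -0.62 in the knockdown and -0.73 between the controls, and NR3C2 at -1.18, -2.39 and 2.25.

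RARA, the retinoic acid receptor alpha gene, differed in both arms, in opposite directions. It had 23.2, 29.9 and 24.7 FPKM in overexpressing cells, against 16.5, 13.9 and 11.7 FPKM in their control. In knockdown cells it had 13.9, 16.8 and 15.7 FPKM, against 24.9, 23.9 and 26.0 FPKM in the knockdown control. Neither pair overlapped: all 3 overexpressing libraries were above their control, and all 3 knockdown libraries were below theirs. The log2 fold change was 0.94 ± 0.15 (SE, adjusted p = 0.00314) with overexpression and -0.62 ± 0.15 (adjusted p = 0.0122) in the knockdown, and the difference of arms was 1.56 ± 0.21 (adjusted p = 0.000687). The controls differed too, by -0.73 ± 0.15 for overexpression control minus knockdown control (adjusted p = 0.00402). All 4 calls held without any single library, with log2 fold changes of 0.84 to 1.11 with overexpression and -0.69 to -0.54 in the knockdown over all settings tried. In bulk RNA, fewer cells that express a gene and less RNA of it per cell cannot be told apart. RARA lies at chr17:40309192-40357643 (plus strand, GRCh38) and shares 556 exonic bases with the antisense gene RARA-AS1. The sources used here give no strand setting, so the reads of the 2 genes cannot be told apart.

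RARB, itself a textbook target of retinoic acid receptors, moved the other way with overexpression. It had 4.65, 4.39 and 5.40 FPKM in overexpressing cells, against 9.55, 8.51 and 8.85 FPKM in their control, without overlap (log2 fold change -0.92 ± 0.27, adjusted p = 0.0403). That call ended when any of 10 libraries was left out: overexpression library 1, 2 or 3 (adjusted p = 0.107, 0.118 and 0.0825), overexpression control library 1, 2 or 3 (0.07, 0.081 and 0.0947), knockdown library 1 (0.0511) or knockdown control library 1, 2 or 3 (0.0588, 0.058 and 0.0577). Knockdown cells had 6.73, 9.12 and 3.31 FPKM of RARB, against 6.07, 5.29 and 5.90 FPKM in the knockdown control. The knockdown libraries lie on both sides of that control (0.19 ± 0.27, adjusted p = 0.636), and library 3 is the low one; without it the value was 0.50 (adjusted p = 0.0425) and the difference of arms, otherwise -1.11 ± 0.39 (adjusted p = 0.0549), was -1.42 (adjusted p = 0.00121). Almost all RARB signal, 96.1%, was assigned to transcript RARB-201, which encodes 448 residues.

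The third gene of the family, RARG, had 6.17, 5.72 and 4.85 FPKM in overexpressing cells, against 4.59, 12.4 and 12.5 FPKM in their control, where library 1 lies apart. It had 6.15, 5.31 and 1.76 FPKM in knockdown cells, against 4.23, 5.41 and 4.12 FPKM in the knockdown control. No contrast of RARG was called in the fit of all 12 libraries. It gave -0.87 ± 0.47 with overexpression (adjusted p = 0.212) and 0.05 ± 0.47 in the knockdown (adjusted p = 0.949). With the rows of assembled transcripts added, the overexpression value was called (-0.95, adjusted p = 0.0421). Between the controls RARG differed by 1.20 ± 0.47 (adjusted p = 0.0694). That difference passed without overexpression control library 1 (1.54, adjusted p = 0.0186) or knockdown library 3 (1.20, 0.0182). It also passed with DESeq2 (0.0312) and in a fit of its own 6 libraries (0.0473). As a share of the summed FPKM of the 3 genes, RARA made up 68.2 to 74.7% in overexpressing cells, against 35.5 to 53.8% in their control. In knockdown cells its share was 51.9, 53.8 and 75.6%, against 69.0 to 72.2% in the knockdown control, and the high value is knockdown library 3, in which RARB and RARG are both low.

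**Figure D3:**
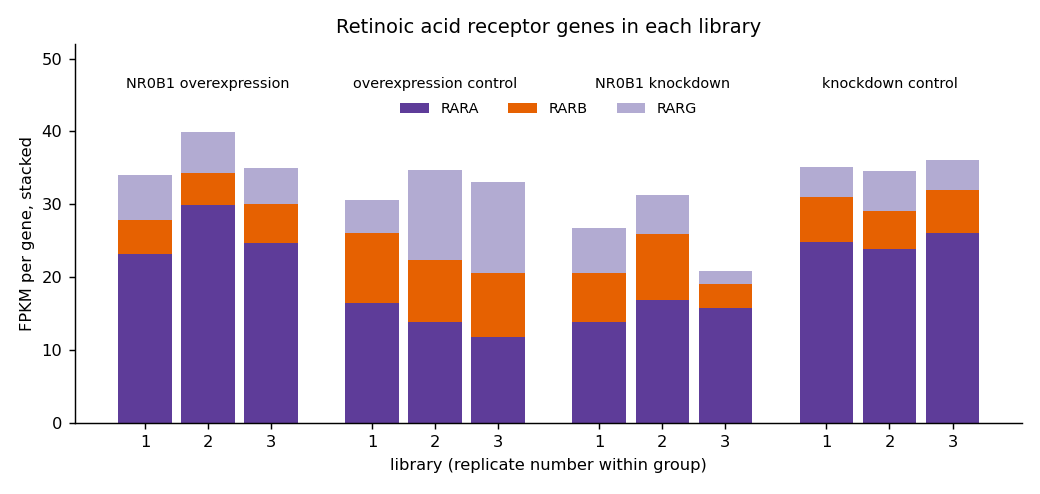
FPKM of RARA, RARB and RARG stacked for each of the 12 libraries. RARA makes up 68.2 to 74.7% of the bar in overexpressing cells, against 35.5 to 53.8% in their control, and the shortest bar, knockdown library 3, reaches 20.8 FPKM.

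RARA transcripts begin at a pair of main start sites, and RARB at a single one, so the promoter windows of these starts are shown. They run from 250 bases before to 50 after a RefSeq start (GRCh38.p14), 5′ to 3′ on the gene's strand, at chr17:40308930-40309229 (upstream start of RARA, plus strand), chr17:40317995-40318294 (downstream start of RARA, plus strand) and chr3:25428013-25428312 (RARB, plus strand). Capitals mark matches, on either strand, to 5 sequences: AGGTCA as the half-site of many receptors, the pentamer GTTCA where it is repeated after 6 bases, TGAGTCA as the AP-1 site, GGGCGG as the GC box and CACGTG as the E-box.
RARA upstream start: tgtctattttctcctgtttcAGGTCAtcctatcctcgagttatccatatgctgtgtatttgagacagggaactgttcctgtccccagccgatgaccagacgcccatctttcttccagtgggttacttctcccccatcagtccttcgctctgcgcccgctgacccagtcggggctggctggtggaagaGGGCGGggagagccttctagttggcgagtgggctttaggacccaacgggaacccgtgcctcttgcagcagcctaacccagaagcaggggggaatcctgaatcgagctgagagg
RARA downstream start: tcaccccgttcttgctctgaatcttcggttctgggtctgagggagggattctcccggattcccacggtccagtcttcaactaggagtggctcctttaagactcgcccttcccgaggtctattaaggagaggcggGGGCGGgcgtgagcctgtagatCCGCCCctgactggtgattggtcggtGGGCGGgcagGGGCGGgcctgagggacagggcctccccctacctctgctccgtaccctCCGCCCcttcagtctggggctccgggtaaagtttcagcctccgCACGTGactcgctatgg
RARB start: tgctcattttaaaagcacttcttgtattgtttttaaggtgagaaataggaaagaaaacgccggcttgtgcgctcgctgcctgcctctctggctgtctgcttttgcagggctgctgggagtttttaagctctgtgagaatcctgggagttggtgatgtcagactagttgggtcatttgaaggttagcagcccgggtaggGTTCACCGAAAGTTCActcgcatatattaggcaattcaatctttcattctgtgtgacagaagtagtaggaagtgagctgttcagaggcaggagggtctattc
The upstream RARA window holds 1 half-site and 1 GC box. The downstream window holds 5 GC boxes and 1 E-box, which reads the same on both strands. In the RARB window the repeated GTTCA, the form of the retinoic acid response element, lies at bases -52 to -37 from the RefSeq start. Of all 35116 RefSeq promoters of this length, 0.057% hold that repeat, 13.8% the half-site, 45% the GC box, 7.26% the E-box and 4.95% the AP-1 site. Of 50 promoters of expressed receptors, 1 holds the repeat, 7 the half-site, 28 the GC box, 3 the E-box and 3 the AP-1 site. A match of letters does not show that a factor binds.

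Over all libraries the upstream RARA transcripts (start chr17:40309192) carried 40.8% of its FPKM and the downstream ones (start chr17:40318281) 54.9%. Downstream transcripts had 14.4, 20.1 and 15.8 FPKM in overexpressing cells, against 8.30, 6.01 and 5.02 FPKM in their control. Upstream transcripts had 7.69, 8.27 and 8.49 FPKM in overexpressing cells, against 7.18, 7.56 and 6.21 FPKM in their control. Both pairs are without overlap, but the gap is far wider for the downstream start. In the knockdown, downstream transcripts had 8.63, 7.34 and 10.5 FPKM, against 11.03, 14.01 and 11.16 FPKM in the knockdown control, and upstream ones 4.12, 8.61 and 4.99 FPKM, against 12.5, 8.89 and 13.7 FPKM. Neither start overlapped between the groups there, although knockdown library 2 lies close to the knockdown control at the upstream start. The most abundant RARA transcript, RARA-206, begins at the downstream start, and its annotated coding part has 365 residues. It made up 53.3% of RARA FPKM in overexpressing cells, against 35.9% in their control. Its share was 38.9% in knockdown cells, against 30.9% in the knockdown control. RSEM splits reads that transcripts share by estimate, so these values carry an error that the table does not give.

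The retinoid X receptors are the heterodimer partners of most ligand-dependent receptors here. RXRA had 13.3, 13.3 and 14.6 FPKM in overexpressing cells, against 10.4, 17.4 and 15.9 FPKM in their control (-0.10 ± 0.17, adjusted p = 0.715). It had 12.7, 13.3 and 13.9 FPKM in knockdown cells, against 11.4, 11.6 and 8.83 FPKM in the knockdown control, without overlap (0.36 ± 0.17, adjusted p = 0.15; 0.0467 without overexpression control library 1). RXRB had 6.83, 8.63 and 7.29 FPKM in overexpressing cells, against 7.82, 9.04 and 7.66 FPKM in their control. Knockdown cells had 7.02, 6.88 and 6.22 FPKM of RXRB, against 8.38, 9.15 and 8.82 FPKM in the knockdown control. That pair did not overlap and lay just outside the threshold (-0.36 ± 0.12, adjusted p = 0.0528); it passed without overexpression library 2 (0.0486) or overexpression control library 1 (0.0471) and with DESeq2 (0.0257).

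Among the lipid receptors PPARG, the fatty acid receptor that drives fat cell formation, was the second most abundant gene of the 38 and fell in the knockdown. It had 19.1, 30.3 and 27.9 FPKM in knockdown cells, against 39.2, 38.5 and 41.5 FPKM in the knockdown control, without overlap (-0.62 ± 0.15, adjusted p = 0.0136; 0.0503 without knockdown control library 3 and 0.0597 in a fit of its own 6 libraries). With overexpression it had 33.8, 31.8 and 34.8 FPKM, against 29.8, 35.6 and 37.0 FPKM in the control (-0.08 ± 0.15, adjusted p = 0.753). Between the arms PPARG differed by 0.54 ± 0.21, which was not called (adjusted p = 0.0819) and passed without knockdown library 2 (0.67, adjusted p = 0.0342). PPARG transcripts that begin in the upstream cluster made up 90.3% of its FPKM. The transcript that begins at chr3:12351472, which encodes 505 residues, the length of the fat-cell form, made up 0.5%.

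PPARD, which regulates fatty acid oxidation in many tissues, had 4.15, 4.43 and 4.74 FPKM in overexpressing cells, against 5.80, 6.33 and 5.82 FPKM in their control. These ranges are apart, yet the fit gave -0.44 ± 0.25 (adjusted p = 0.241; 0.0398 without knockdown library 2). Knockdown cells had 3.44, 6.34 and 2.67 FPKM, against 4.22, 3.47 and 3.39 FPKM in the knockdown control (0.19 ± 0.25, adjusted p = 0.612), and library 2 is the high one. For PPARD the arms differed by -0.63 ± 0.35 (adjusted p = 0.21; -0.86 and 0.0469 without knockdown library 3). PPARA, the receptor for fibrates and regulator of fat burning in liver, was the lowest expressed gene, with 0.20, 0.61 and 0.77 FPKM in overexpressing cells, against 1.15, 1.17 and 2.09 FPKM in their control. It had 0.58, 0.77 and 0.64 FPKM in knockdown cells, against 0.53, 0.59 and 0.33 FPKM in the knockdown control. Neither arm was called for PPARA (-1.29 ± 0.76, adjusted p = 0.256, and 0.65 ± 0.78, adjusted p = 0.576). With overexpression it was called by limma on log2(FPKM + 1) (adjusted p = 0.0298) and log2(FPKM + 0.1) (0.0464). PPARA reached 1 FPKM in the overexpression control alone and was tested only because it is high there. That leaves these limma calls no support. With the rows of assembled transcripts added, PPARA was called in the knockdown (1.11, adjusted p = 0.00936) and for the difference of arms (-1.65, adjusted p = 0.00617). PPARG made up 86.3 to 88.6% of the summed PPAR FPKM in overexpressing cells, against 81.1 to 82.6% in their control, and 81.0 to 89.4% in knockdown cells, against 89.2 to 91.8% in the knockdown control.

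The thyroid hormone receptor gene THRB fell in the knockdown. It had 3.04, 3.77 and 1.60 FPKM in knockdown cells, against 4.65, 4.90 and 5.88 FPKM in the knockdown control, without overlap (-0.75 ± 0.23, adjusted p = 0.0368). That call ended without overexpression library 1 (adjusted p = 0.0507), knockdown library 1 (0.0743) or knockdown control library 1, 2 or 3 (0.0568, 0.08 and 0.101), and in a fit of its own 6 libraries (0.119). With overexpression it had 5.02, 4.62 and 4.64 FPKM, against 8.12, 6.66 and 7.95 FPKM in the control, also without overlap, but outside the threshold (-0.65 ± 0.23, adjusted p = 0.0722). It passed without knockdown library 2 (0.0267) or 3 (0.00895), with DESeq2 (0.0405) and in a fit of its own 6 libraries (0.016). For THRB the arms differed by 0.11 ± 0.32 (adjusted p = 0.829).

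THRA, the other thyroid hormone receptor gene, had 7.96, 10.9 and 9.58 FPKM in overexpressing cells, against 13.7, 17.3 and 16.1 FPKM in their control. The groups did not overlap, and the fit lay on the threshold (-0.69 ± 0.22, adjusted p = 0.0503; 0.045 without overexpression control library 1 and 0.0451, 0.0384 and 0.00399 without knockdown library 1, 2 and 3). In knockdown cells it had 12.6, 13.1 and 7.22 FPKM, against 9.83, 10.2 and 8.81 FPKM in the knockdown control (0.23 ± 0.22, adjusted p = 0.463; 0.49 and 0.0249 without knockdown library 3). The difference of arms was -0.92 ± 0.31 (adjusted p = 0.0481), and this call still held when overexpression control library 1 or knockdown library 3 was left out, but leaving out any of the other 10 libraries ended it, with adjusted p from 0.0667 (without overexpression library 2) to 0.116 (without knockdown control library 3). It also ended with no FPKM filter (0.0532), with limma on log2(FPKM + 0.1) (0.0516) and without both libraries that stood apart (0.064). With overexpression THRA was called by DESeq2 (0.0201), by limma (0.031 and 0.0338) and in a fit of its own 6 libraries (0.0144). Transcript THRA-201, which encodes the 490-residue form, made up 47.4% of its FPKM. THRA shares 263 exonic bases with NR1D1 on the opposite strand, whose reads cannot be told from it there. THRA made up 61.3 to 70.2% of the summed THRA and THRB FPKM in overexpressing cells, against 62.8 to 72.1% in their control, and 77.6 to 81.9% in knockdown cells, against 60.0 to 67.9% in the knockdown control, where the ranges are apart.

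VDR, the vitamin D receptor, had 5.37, 4.50 and 3.87 FPKM in overexpressing cells, against 9.86, 4.80 and 5.18 FPKM in their control (-0.45 ± 0.44, adjusted p = 0.503). It had 2.96, 11.2 and 3.66 FPKM in knockdown cells, against 6.41, 5.58 and 7.26 FPKM in the knockdown control (0.05 ± 0.44, adjusted p = 0.948). Its highest values were in overexpression control library 1 and knockdown library 2, the libraries that stood apart in all genes.

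NR3C1, the glucocorticoid receptor gene, had 94.5, 89.1 and 95.8 FPKM in overexpressing cells, against 75.6, 76.1 and 73.9 FPKM in their control, a narrow but complete separation. The log2 fold change of 0.28 ± 0.11 was not called (adjusted p = 0.102; 0.0175 without knockdown library 2 and 0.0436 with DESeq2). Knockdown cells had 73.3, 92.2 and 69.0 FPKM, against 78.3, 84.0 and 86.9 FPKM in the knockdown control, and knockdown library 2 lies above all 3 controls (-0.12 ± 0.11, adjusted p = 0.466; -0.25 and 0.0497 without that library). For NR3C1 the arms differed by 0.40 ± 0.16 (adjusted p = 0.0853; 0.54 and 0.00597 without knockdown library 2). Most of its FPKM, 61.8%, was assigned to a transcript that encodes the full receptor of 777 residues.

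NR3C2, the mineralocorticoid receptor gene, was low, with 0.08 to 2.53 FPKM in single libraries, and fell in both arms. Only the knockdown libraries, with 9, 7 and 6 expected counts, were near the limit of detection. It had 1, 1.17 and 0.46 FPKM in overexpressing cells, against 2.53, 1.31 and 1.79 FPKM in their control (-1.18 ± 0.33, adjusted p = 0.032). It had 0.11, 0.12 and 0.08 FPKM in knockdown cells, against 0.36, 0.43 and 0.41 FPKM in the knockdown control (-2.39 ± 0.39, adjusted p = 0.0019). Neither pair overlapped. The knockdown call held without any single library but not with limma on log2(FPKM + 1), which compresses values this low (-0.34, adjusted p = 0.213). The call with overexpression ended without overexpression library 1, 2 or 3 (adjusted p = 0.0563, 0.0583 and 0.104) or overexpression control library 1 or 3 (0.0754 and 0.067), with limma on log2(FPKM + 0.1) (0.093) and in a fit of its own 6 libraries (0.0654). The controls themselves differed by 2.25 ± 0.34 (adjusted p = 0.00102), which is as wide as the responses, and the difference of arms was 1.21 ± 0.50 (adjusted p = 0.0962; 0.0375 without overexpression library 3 and 0.0369 without overexpression control library 1).

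ESRRA, the estrogen-related receptor that regulates mitochondrial genes, had 10.6, 12.4 and 11.01 FPKM in overexpressing cells, against 19.3, 13.8 and 14.6 FPKM in their control, without overlap (-0.52 ± 0.24, adjusted p = 0.142; 0.033 without knockdown library 2). It had 7.95, 15.2 and 8.43 FPKM in knockdown cells, against 12.9, 14.9 and 16.5 FPKM in the knockdown control. Knockdown library 2 again differed from the other 2: the log2 fold change was -0.46 ± 0.24 (adjusted p = 0.178) with it and -0.82 (adjusted p = 0.00658) without it.

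HNF4A, the hepatocyte nuclear factor 4 gene of liver and gut epithelium, rose in the knockdown. It had 13.5, 12.4 and 11.5 FPKM in knockdown cells, against 6.96, 7.41 and 6.18 FPKM in the knockdown control, with a wide gap between the groups (0.85 ± 0.18, adjusted p = 0.00771). With overexpression it had 7.89, 7.52 and 7.54 FPKM, against 11.1, 6.85 and 6.99 FPKM in the control, of which library 1 is high (-0.18 ± 0.18, adjusted p = 0.528). The difference of arms was -1.03 ± 0.26 (adjusted p = 0.0147). Both calls of HNF4A held without any single library and under every other setting tried.

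HNF4A transcripts begin at the distal P2 promoter or downstream of it at P1, and both windows are shown because transcripts of both were more abundant in the knockdown. They lie on the plus strand at chr20:44355449-44355748 (P2) and chr20:44400989-44401288 (P1), with the same capitals as above.
HNF4A P2 start: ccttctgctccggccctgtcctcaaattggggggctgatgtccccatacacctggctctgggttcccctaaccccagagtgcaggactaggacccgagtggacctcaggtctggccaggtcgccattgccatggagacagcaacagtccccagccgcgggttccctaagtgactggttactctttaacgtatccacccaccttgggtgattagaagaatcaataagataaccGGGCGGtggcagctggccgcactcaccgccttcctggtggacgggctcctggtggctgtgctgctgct
HNF4A P1 start: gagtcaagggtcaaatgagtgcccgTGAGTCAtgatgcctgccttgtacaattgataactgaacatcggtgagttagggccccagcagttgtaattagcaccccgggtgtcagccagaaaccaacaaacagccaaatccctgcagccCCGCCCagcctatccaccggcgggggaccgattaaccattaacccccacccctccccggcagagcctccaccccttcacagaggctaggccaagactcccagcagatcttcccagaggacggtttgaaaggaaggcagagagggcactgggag
The P2 window holds 1 GC box, and the P1 window 1 AP-1 site and 1 GC box, the GC box on the opposite strand. P2 transcripts carried 64.3% of HNF4A FPKM and P1 transcripts 35.7%. P2 transcripts had 8.91, 8.48 and 8.10 FPKM in knockdown cells, against 4.88, 4.86 and 4.04 FPKM in the knockdown control. P1 transcripts had 4.56, 3.92 and 3.44 FPKM in knockdown cells, against 2.08, 2.55 and 2.14 FPKM in the knockdown control, so neither start overlapped. With overexpression P2 transcripts had 4.41, 4.90 and 3.33 FPKM, against 6.46, 4.15 and 5.53 FPKM in the control, and P1 transcripts 3.48, 2.62 and 4.21 FPKM, against 4.64, 2.70 and 1.46 FPKM; both of these pairs overlap.

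**Figure D4:**
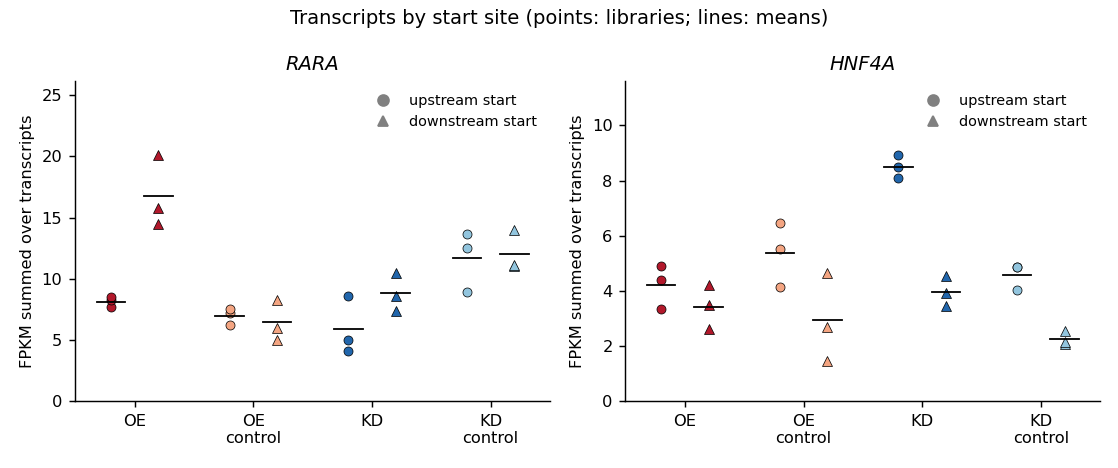
FPKM summed over the transcripts of each main start site of RARA and HNF4A, with circles for the upstream and triangles for the downstream start, a point per library and a line at the mean (OE, overexpression; KD, knockdown). The downstream RARA start reaches 14.4 to 20.1 FPKM in overexpressing cells, against 5.02 to 8.30 FPKM in their control, and both HNF4A starts are higher in the knockdown than in its control.

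HNF4G, the close relative of HNF4A, was low, with 1.99, 0.85 and 0.87 FPKM in overexpressing cells, against 0.36, 0.02 and 0.85 FPKM in their control, and 1.32, 1.41 and 0.39 FPKM in knockdown cells, against 1.19, 1.34 and 0.39 FPKM in the knockdown control. No contrast was called (1.91 ± 1.005, adjusted p = 0.204, with overexpression), and the libraries of each group differ by more than the groups.

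NR2C1 (TR2), a testicular orphan receptor that represses hormone response elements, had 12.3 FPKM in each knockdown library, against 8.24, 9.38 and 9.41 FPKM in the knockdown control. The rise of 0.40 ± 0.13 (adjusted p = 0.0479) still passed when overexpression library 1 or overexpression control library 1 was left out, but leaving out any of the other 10 libraries ended it, with adjusted p up to 0.16 (without knockdown control library 1). It also ended with DESeq2 size factors (0.0505), with no FPKM filter (0.0607) and in a fit of its own 6 libraries (0.0753). In overexpressing cells it had 9.77, 9.32 and 8.93 FPKM, against 10.1, 12.7 and 15.3 FPKM in their control, without overlap (-0.37 ± 0.13, adjusted p = 0.0769; 0.0405 without overexpression control library 1). The difference of arms, -0.77 ± 0.19, was called (adjusted p = 0.0131) and held without any single library. A short transcript whose annotated coding part has 72 residues took 39.0% of its FPKM. NR2C2 (TR4), its relative, was higher and flatter, with 16.6 to 16.7 FPKM in overexpressing cells, against 16.8 to 20.5 FPKM in their control, and 15.5 to 20.6 FPKM in knockdown cells, against 20.9 to 21.5 FPKM in the knockdown control. In FPKM the groups were apart in both arms, but the fold changes were -0.20 ± 0.10 (adjusted p = 0.194) and -0.03 ± 0.10 (adjusted p = 0.868). In CPM, the scale of the fit, the groups of the knockdown arm overlapped. There NR2C2 stood at 110.7, 113 and 88.2 CPM in knockdown cells, against 101.6, 109.8 and 106.6 CPM in the knockdown control. NR2C2 shares 1197 exonic bases with MRPS25 on the opposite strand.

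Of the COUP-TF genes, which act as repressors in development and cell fate, NR2F1 fell in the knockdown. It had 1.34, 1.37 and 0.79 FPKM in knockdown cells, against 3.86, 2.60 and 2.55 FPKM in the knockdown control (-1.60 ± 0.33, adjusted p = 0.00614), and the call held without any single library. It had 2.04, 2.28 and 2.13 FPKM in overexpressing cells, against 1.86, 4.41 and 3.88 FPKM in their control (-0.62 ± 0.32, adjusted p = 0.191). NR2F2 had 12.4, 9.62 and 11.5 FPKM in overexpressing cells, against 15.6, 10.5 and 9.70 FPKM in their control, and 9.86, 7.80 and 14.2 FPKM in knockdown cells, against 9.93, 9.65 and 10.03 FPKM in the knockdown control. Both pairs overlap for NR2F2, and it was not called (-0.14 ± 0.23 and 0.11 ± 0.23). NR2F6 had 9.25, 4.82 and 7.44 FPKM in overexpressing cells, against 12.8, 7.90 and 7.63 FPKM in their control, and 10.1, 10.7 and 5.08 FPKM in knockdown cells, against 4.79, 7.26 and 4.95 FPKM in the knockdown control. NR2F6 was not called in either arm, but with the rows of assembled transcripts added it had -0.60 with overexpression (adjusted p = 0.00809). Its difference of arms was -1.05 ± 0.47 (adjusted p = 0.122). That difference was called without knockdown library 3 (-1.32, adjusted p = 0.0374) and with the assembled transcripts added (-0.84, adjusted p = 0.00501). The photoreceptor gene NR2E3 was detected at 0.09, 0.36 and 0.08 FPKM in knockdown cells, against 1.25, 0.47 and 0.43 FPKM in the knockdown control (-2.00 ± 0.60, adjusted p = 0.0345). That call ended without knockdown library 1 (0.111) or 3 (0.0841) or knockdown control library 1 (0.146), the highest of its group, with limma on log2(FPKM + 1) (0.0945) and in a fit of its own 6 libraries (0.112). With overexpression NR2E3 had 1.13, 1.08 and 0.81 FPKM, against 1.02, 1.96 and 1.60 FPKM in the control (adjusted p = 0.45).

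**Figure D5:**
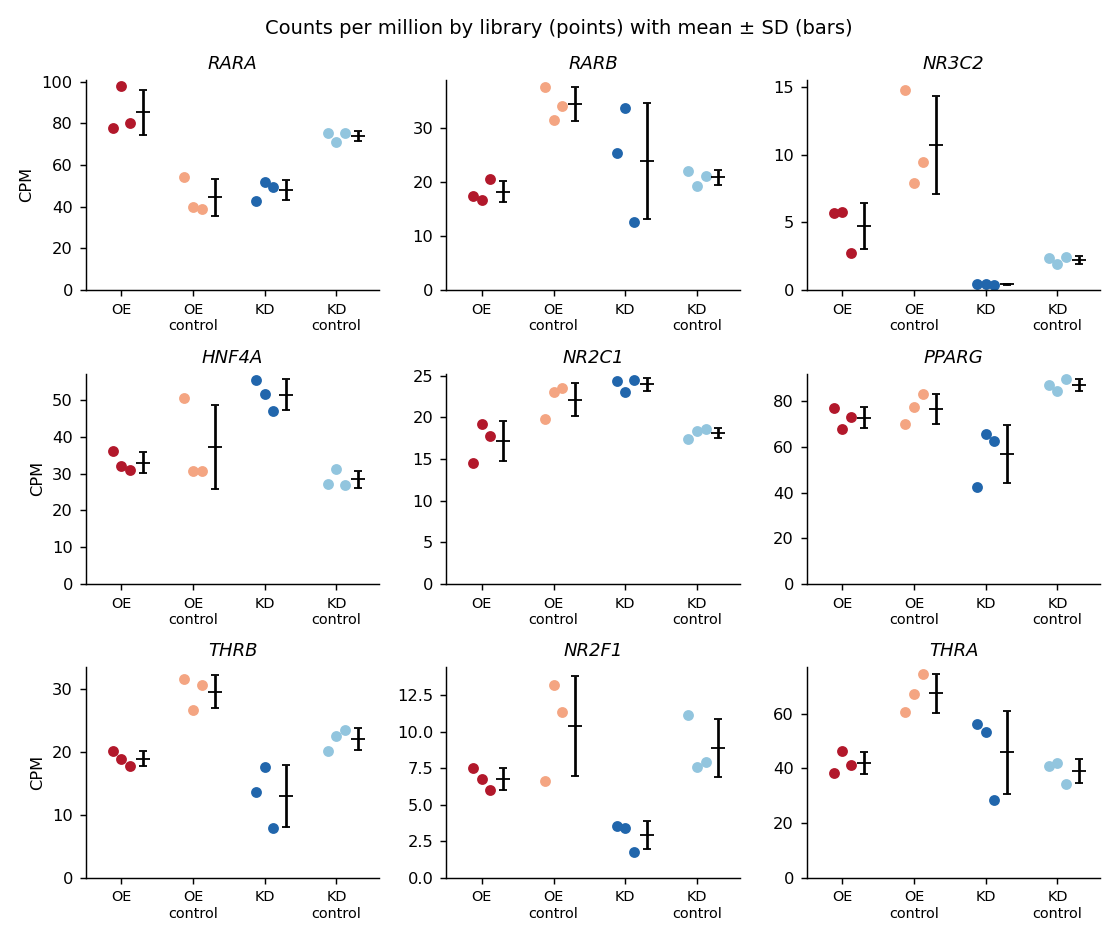
CPM of 9 receptor genes in each library, with the mean ± SD of 3 libraries beside the points (OE, overexpression; KD, knockdown). RARA separates the groups in both arms in opposite directions, HNF4A is high in all 3 knockdown libraries and in overexpression control library 1, and RARB, THRB and THRA have a low point in knockdown library 3.

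NR1H4, the bile acid receptor FXR, had 3.86, 2.16 and 2.06 FPKM in overexpressing cells, against 7.12, 2.32 and 2.84 FPKM in their control, where library 1 lies far above the others (-0.77 ± 0.49, adjusted p = 0.293). Knockdown cells had 1.46, 1.87 and 0.94 FPKM, against 1.47, 1.36 and 1.22 FPKM in the knockdown control (-0.01 ± 0.50, adjusted p = 0.994). NR5A2 (LRH-1), the NR5A receptor present in these cells and a regulator of bile acid and cholesterol genes in liver, had 21.3, 16.6 and 16.5 FPKM in overexpressing cells, against 24.7, 17.6 and 14.4 FPKM in their control. It had 12.04, 15.2 and 9.90 FPKM in knockdown cells, against 13.4, 15.9 and 13.2 FPKM in the knockdown control. Both pairs overlap for NR5A2 (-0.05 ± 0.21, adjusted p = 0.891, and -0.19 ± 0.21, adjusted p = 0.554). The germ cell factor NR6A1 ranged from 0.25 to 2.04 FPKM and RORA, a receptor of the clock and of immune cells, from 0.65 to 2.85 FPKM, with overlapping FPKM of the groups in both arms. In CPM, the scale of the fit, the RORA groups were apart in both arms. RORA stood at 4.83, 4.47 and 3.29 CPM in overexpressing cells, against 6.87, 5.95 and 6.96 CPM in their control. Knockdown cells had 3.56, 3.99 and 1.11 CPM, against 4.99, 5.99 and 5.41 CPM in the knockdown control. Neither arm was called for RORA (-0.65 ± 0.38, adjusted p = 0.248, and -0.92 ± 0.38, adjusted p = 0.103). The knockdown value was called without knockdown library 2 (-1.22, adjusted p = 0.0478).

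Between the controls, RARA was lower in the overexpression control (16.1% of all genes tested were called lower) and 6 receptors were higher there (17.2% were called higher): NR3C2, THRA (0.79 ± 0.22, adjusted p = 0.0177), NR1H4 (1.55 ± 0.50, adjusted p = 0.0341), RXRA (0.53 ± 0.17, adjusted p = 0.0358), PPARD (0.76 ± 0.25, adjusted p = 0.038) and PPARA (2.36 ± 0.79, adjusted p = 0.0407). PPARA reached 1 FPKM in the overexpression control alone and so was tested only because it is high there, which leaves its call no support. Of these 7 calls, RARA and NR3C2 held without any single library. NR3C2 too passed the filter only through the overexpression control, where it is high, so its call rests on the group that let it in. NR1H4 had 0.69 (adjusted p = 0.165) without overexpression control library 1 and also lost its call without knockdown control library 1, 2 or 3 (0.0728, 0.0824 and 0.107). THRA lost its call without overexpression control library 3 (0.0597) or knockdown control library 3 (0.0719). RXRA lost it without overexpression library 2 or 3, overexpression control library 2 or 3 or any knockdown control library (0.0554 to 0.145), and PPARA without overexpression library 2 or 3, any overexpression control library or knockdown control library 2 or 3 (0.0528 to 0.119). PPARD kept it when a knockdown library was left out and lost it without each of the other 9 (0.0511 to 0.111). Because the arms rest on these different controls, a level in overexpressing cells and a level in knockdown cells are read here against their own control only.

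Genes that work with these receptors were followed in 13 lists written from textbook knowledge, each without the 38 receptors. These lists were chosen with earlier results of these data known. The genes named from them were taken by a fixed rule, each with a call that held without any single library, and picked after their values were seen. DNAJB1, higher with overexpression (1.20, adjusted p = 0.00546), and GATA3, lower in the knockdown (-2.21, adjusted p = 0.00691), also met these conditions and are not described further. The counts below stand beside shares of all genes tested of 9.87% called higher and 8.2% called lower with overexpression, and 12.4% higher and 11.5% lower in the knockdown, and no list was tested against them. Among 18 coactivators, 4 rose with overexpression, and 1 rose and 5 fell in the knockdown (median log2 fold changes -0.05 and -0.27). MED1, the Mediator subunit that binds receptors directly, averaged 248 ± 2.05 CPM in overexpressing cells and 154 ± 13.5 CPM in their control (SD, n = 3 each), and 183 ± 13.1 CPM in knockdown cells and 263 ± 14.0 CPM in the knockdown control. Its log2 fold change was 0.69 ± 0.10 with overexpression (adjusted p = 0.00206) and -0.52 ± 0.10 in the knockdown (adjusted p = 0.00364). The acetyltransferase CREBBP showed the same signs, with 0.75 ± 0.13 (adjusted p = 0.00519) and -0.55 ± 0.13 (adjusted p = 0.0127), and PPRC1, a PGC-1 relative, rose by 1.23 ± 0.21 with overexpression (adjusted p = 0.0048). NCOA3 (SRC-3) rose in the knockdown by 0.53 ± 0.12 (adjusted p = 0.00986; 0.053 in a fit of its own 6 libraries). MED1 and CREBBP also differed between the controls, by -0.77 ± 0.10 (adjusted p = 0.000441) and -0.62 ± 0.13 (adjusted p = 0.0054). Of 11 receptor chaperones, 1 rose and 1 fell with overexpression and 1 rose in the knockdown, the HSP70 protein HSPA8, at 1863 ± 1350 CPM in knockdown cells and 247 ± 62.2 CPM in the knockdown control (2.92 ± 0.47, adjusted p = 0.00189), with a wide spread. Leaving out 1 library gave 1 to 4 called chaperones with overexpression (4 without knockdown library 2 or 3) and 3 in the knockdown without knockdown library 2.

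Target lists of the receptors were mixed, beside 18.1% of all genes tested called with overexpression and 23.9% in the knockdown. Of 17 tested glucocorticoid targets, 1 rose with overexpression, the kinase SGK1 (78.7 ± 15.5 CPM, against 16.8 ± 8.02 CPM in the control; 2.23 ± 0.28, adjusted p = 0.00125), and 2 rose and 5 fell in the knockdown, led by the phosphatase DUSP1 (-1.55 ± 0.20, adjusted p = 0.000604), GADD45B (-2.32 ± 0.38, adjusted p = 0.00198) and the metallothionein MT2A (1.49 ± 0.30, adjusted p = 0.00542). DUSP1 and GADD45B are also early response genes of many other stimuli. Of 10 tested retinoid targets, 1 rose and 2 fell with overexpression, and 1 fell in the knockdown, the retinoic acid hydroxylase CYP26B1, at 5.62 ± 0.35 CPM in knockdown cells and 12.6 ± 0.41 CPM in the knockdown control (-1.16 ± 0.22, adjusted p = 0.00411; -0.55 and 0.0633 with the rows of assembled transcripts added). Of 6 tested vitamin D targets, 1 rose and 3 fell with overexpression and 3 rose in the knockdown, among them thrombomodulin (THBD, 2.15 ± 0.38, adjusted p = 0.00285) and CD14 (2.04 ± 0.37, adjusted p = 0.00325). THBD was also the target that rose with overexpression (1.44, adjusted p = 0.0242). That call ended without overexpression library 2 or 3 or overexpression control library 3, and in a fit of its own 6 libraries (0.0625). CD14 fell with overexpression (-1.42, adjusted p = 0.02), a call that ended without overexpression library 2 or 3 or overexpression control library 2 or 3. VDR itself was not called in either arm. Without knockdown library 2, 5 glucocorticoid targets, 5 retinoid targets and 7 PPAR targets were called with overexpression, and without overexpression library 3, 0 retinoid and 0 vitamin D targets; without overexpression control library 3, 0 vitamin D targets were called there either. In the knockdown 3 retinoid targets were called without knockdown library 2 and 5 vitamin D targets without knockdown library 3.

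The PPAR list gave 3 lower of 13 with overexpression, led by the fatty acid oxidation enzyme ACADVL (-0.63 ± 0.10, adjusted p = 0.0029), and 1 higher in the knockdown. Of 15 tested targets of estrogen-related receptors, 4 fell with overexpression, led by malate dehydrogenase MDH1 (-0.51 ± 0.10, adjusted p = 0.00861), and 1 rose in the knockdown and 1 fell, citrate synthase CS (-0.70 ± 0.16, adjusted p = 0.0115). Estrogen receptor targets gave 1 higher of 9 with overexpression and 3 higher and 3 lower in the knockdown, led by the EGFR ligand AREG (-1.22 ± 0.16, adjusted p = 0.00059), although ESR1 and ESR2 were below 0.2 FPKM in all libraries. Thyroid hormone targets gave 1 higher and 1 lower of 4 with overexpression and a median of -0.12 in the knockdown, xenobiotic receptor targets 2 lower of 7 with overexpression and 1 higher in the knockdown, and the 5 tested HNF4 targets medians of -0.25 with overexpression and 0.45 in the knockdown. With overexpression the counts without knockdown library 2 were 7 for estrogen-related receptor targets and 4 for estrogen receptor targets, and without overexpression library 3 they were 1 and 0; xenobiotic targets had 0 without overexpression library 2 or 3. In the knockdown the PPAR list had 1 call without overexpression control library 1, 3 without knockdown library 2 and 0 when any of the other 10 libraries was left out, 5 estrogen-related receptor targets were called without knockdown library 2, and 3 and 2 estrogen receptor targets without knockdown library 1 and knockdown control library 3. Of the 2 tested bile acid receptor targets, syndecan SDC1 fell with overexpression (-0.64 ± 0.11, adjusted p = 0.00388) and rose in the knockdown (1.41 ± 0.11, adjusted p = 5.15e-05).

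Enzymes that make or clear receptor ligands gave 4 higher and 6 lower of 25 with overexpression (5 called without overexpression library 2 or 3 or overexpression control library 2, and 6 without overexpression control library 3) and 3 higher and 3 lower in the knockdown. Of all genes tested 9.87% were called higher and 8.2% lower with overexpression, and 12.4% and 11.5% in the knockdown. CYP27B1, which makes active vitamin D, averaged 8.23 ± 1.26 CPM in overexpressing cells and 1.12 ± 0.39 CPM in their control (2.87 ± 0.32, adjusted p = 0.000699). DIO2, which makes active thyroid hormone, averaged 32.8 ± 7.46 CPM in overexpressing cells and 0.38 ± 0.66 CPM in their control, and 5.97 ± 3.91 CPM in knockdown cells and 5.62 ± 0.45 CPM in the knockdown control. The prostaglandin and steroid reductase AKR1C3 fell with overexpression (-0.82 ± 0.12, adjusted p = 0.0025) and rose in the knockdown (0.75 ± 0.12, adjusted p = 0.00187), with the limit that its near-identical relatives share reads with it. HSD17B4, which breaks down very long fatty acids and estradiol, fell in the knockdown (-0.68 ± 0.12, adjusted p = 0.00281).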

How the data were processed

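RNA of 12 A549 libraries, 3 in each of 4 groups, was read from the table the authors deposited, which gives an expected count (RSEM) and an FPKM value per transcript and library. The tools listed in the submitters' processing notes are RSEM, StringTie 1.3.1, HISAT2 2.0.5, fastp and Bowtie2 2.2.8. The builds listed there, mm10 and GRCm38, are of mouse, although the deposited identifiers and symbols are human, so coordinates here come from GENCODE 29 (GRCh38), which holds 82237 of the 82270 Ensembl transcripts. Another 13977 rows are transcripts assembled by the authors and enter only an alternative. The deposited expected counts and FPKM were summed per gene symbol over Ensembl transcripts (184 symbols that a spreadsheet had turned into dates were restored), and the sums of expected counts were rounded for the test. The 11908 genes that reached 1 FPKM in 3 libraries or more were tested with edgeR 4.0.16 (R 4.3.3, TMM, quasi-likelihood, all 12 libraries in 1 fit, 8 residual degrees of freedom, biological coefficient of variation 24.5%), with Benjamini-Hochberg adjustment over all of them. CPM values are expected counts scaled to the library size, as edgeR computes them. Depth was 15049011 to 22797076 expected counts a library, assembled transcripts included. Scaled to these totals, 3 counts are 0.132 to 0.199 CPM. The CPM of the fit rest on smaller library sizes, without the assembled transcripts and with TMM, so the floor on that scale is higher. For NR2E3 in knockdown library 3, 3 counts gave 0.1845 CPM, against 0.1554 by the total. With 3 against 3 libraries an exact permutation test cannot go below p = 0.1, so none is quoted. Alternatives were DESeq2 1.42.0, its size factors, limma 3.58.1 on log2(FPKM + 1) and log2(FPKM + 0.1), no FPKM filter, the replicate number as a block, the 6 libraries of a comparison alone, assembled transcripts added, and libraries left out; those for the 4-group test and the companion lists were chosen after seeing the data. The members and lists were chosen with earlier results of these data known. Every expressed receptor is named; from each companion list the rule took up to 3 called genes per contrast with the smallest adjusted p. Promoters were matched by symbol to RefSeq (34 of 38 receptors).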

Additional observations from a re-analysis of the deposited data

Results flagged for a closer look

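For 4 receptors the response to overexpression differed from the response to knockdown by a test of that difference (edgeR, 3 libraries a group, Benjamini-Hochberg adjustment over 11908 genes). The difference of log2 fold changes, overexpression minus knockdown, was 1.56 for RARA (adjusted p = 0.000687), which was higher in 3 of 3 overexpressing libraries and lower in 3 of 3 knockdown libraries than in any library of their controls. It was -1.03 for HNF4A (adjusted p = 0.0147), which was higher in 3 of 3 knockdown libraries, and -0.77 for NR2C1 (adjusted p = 0.0131), which was lower in 3 of 3 overexpressing and higher in 3 of 3 knockdown libraries. It was -0.92 for THRA (adjusted p = 0.0481), a call that ended when any of 10 single libraries was left out. The controls of the arms differ from each other for RARA and THRA, and the part of that difference in these values was not tested.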

How the results depend on the processing

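No fold change called for a receptor turned its sign under any alternative. Called receptors with overexpression, 3 here, were 6 with DESeq2, 5 with limma on log2(FPKM + 1), 6 in a fit of the 6 libraries alone, 6 with assembled transcripts added and 8 without both libraries that stood apart, where 4462 genes were called in place of 2152. In the knockdown the fit of 6 libraries called 4 receptors in place of 8 and 1833 genes in place of 2851, and leaving out both libraries called 4493 genes. For the difference of arms 7 receptors, in place of 4, were called with assembled transcripts added and 7 without both libraries, with 4590 genes in place of 3054. Leaving out 1 library gave 821 to 3300 called genes and 1 to 8 receptors with overexpression, 1503 to 3435 and 5 to 10 in the knockdown, 2127 to 3785 and 3 to 7 for the difference, 2560 to 4920 and 2 to 11 between the controls, and 6 to 16 receptors in the 4-group test. The number of expressed receptors was 26 at 0.5 FPKM and 22 by a mean of 1 FPKM or more. After group means were removed, same-numbered libraries correlated at 0.197, 0.131 and 0.008 in the overexpression arm and -0.006, -0.087 and -0.059 in the knockdown arm. In these arms 4 of 6 and 0 of 6 libraries correlated best with their own number. Whether the numbers pair samples cannot be told from so few values. With the replicate block 1867, 2445, 2770 and 3680 genes and 2, 7, 3 and 5 receptors were called with overexpression, in the knockdown, for the difference and between the controls; the block ended the calls of RARB with overexpression (adjusted p = 0.0635), NR2C1 in the knockdown (0.0547), THRA for the difference (0.0588), and RXRA (0.0558) and PPARA (0.0631) between the controls. The cause of these changes was not tested. With 3 libraries a group, a receptor that was not called is not shown to be unchanged.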

Other observations

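Transcripts that the authors assembled beside the Ensembl ones carry the symbols of some receptors in 33 rows, which the levels above leave out. The most abundant, annotated to NR2F6, had 8.18, 9.39 and 6.45 FPKM in overexpressing cells, against 9.45, 13.5 and 14.4 FPKM in their control, without overlap, and 11.1, 8.96 and 11.97 FPKM in knockdown cells, against 9.30, 11.4 and 8.78 FPKM in the knockdown control. Its mean of 10.2 FPKM is above the 7.72 FPKM summed over the Ensembl transcripts of NR2F6, the COUP-TF relative EAR2. An assembled transcript annotated to NR5A2 had a mean of 4.98 FPKM, beside 15.9 FPKM for its Ensembl transcripts.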
